A study of Mus musculus with 7 samples.

Results

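Genes that encode chromatin modifiers and remodelers were examined in T follicular helper (Tfh) cells after blockade of type I interferon signalling. The members were chosen by name: protein-coding genes whose symbol starts with Smarc, Arid or Setd, or with Kdm, Kmt, Hdac, Kat, Brd or Chd and a digit. In the authors' list of 6395 ATAC-seq peaks, this rule found 64 peaks assigned to 51 genes. ATAC-seq uses a transposase that cuts and tags open DNA. The cells were CD4 and CD44 positive, GITR negative, PSGL-1 low and high in CXCR5 and PD-1, sorted from the spleen of B6/Sle1.Yaa mice aged 5 months, a strain that develops lupus-like disease. The anti-IFNAR1 group (4 samples, the antibody written as anti-IFNA1 in the treatment labels) and the control group given anti-rat IgG (3 samples) were dosed 2 times a week for 4 weeks. All 7 samples share the Sle1 and Yaa background, and no sample without disease-prone alleles was part of the design. The labels do not say whether a sample is 1 mouse or several.

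Chromatin modifiers add or remove chemical marks on histone tails. Writers are the methyltransferases (Setd, Kmt) and acetyltransferases (Kat), erasers are the demethylases (Kdm) and deacetylases (Hdac), and bromodomain readers (Brd) bind acetylated lysines. Remodelers (Smarc, Chd and the SWI/SNF subunits Arid1a, Arid1b and Arid2) use ATP to slide or evict nucleosomes. Together they set which promoters and enhancers a T cell can use as it takes on a helper fate. The remaining ARID genes encode DNA-binding proteins that are neither enzymes nor SWI/SNF subunits, and they were kept as a group of their own.

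The deposited table compares the anti-IFNAR1 side with the control IgG side and holds only peaks that were higher on the anti-IFNAR1 side at a q of 0.05. Losses of accessibility were not analysed here, nor were values of single mice, so the spread between mice is unknown for every value given. Every pileup, fold and q below is from the authors' deposited table. The pileup is the coverage at the peak's summit, the fold is the ratio of that coverage to the local control background, and q is the caller's adjusted p. The pileup moved in steps of 0.283, which gave back whole fragments within 0.005 and a depth 3.54 times that of the control side. Equal depth per sample would have given 1.33, and the depth of each sample is unknown. Of the 9 Tfh and T cell markers looked up, 6 had a listed peak (Bcl6, Pdcd1, Tcf7, Maf, Cd4 and Cd3e), while Cxcr5, Icos and Il21 had none assigned. For B cells it was 0 of 6 and for CD8 T and NK cells 0 of 5, against 2 of 5 myeloid markers (Cd14 and Cebpa) and 1 of 3 regulatory T cell markers (Il2ra). A list of gains does not show the level of any marker, and the part of other cells in the results was not tested.

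Over the mouse genome, 97 RefSeq protein-coding genes match the naming rule. Of these, 52 had a listed peak (53.6%), where 21.1% of all 21900 protein-coding genes did. Genes never opened in T cells are part of that background, and no test was made, since members and list were chosen with results of these data known. The 52 genes are the 51 members and Kmt5b, which the file lists under its older name Suv420h1. The counts were 16 of 26 writers (61.5%), 12 of 29 erasers (41.4%), 16 of 26 remodelers (61.5%), 4 of 9 readers (44.4%) and 4 of 7 other ARID genes (57.1%). The 9 readers include Brd3os and Brd8dc, which match by spelling and had no assigned peak. Among the remodelers, SWI/SNF subunit genes with Smarc, Arid1 or Arid2 names were listed in 10 of 12 cases (83.3%) and CHD genes in 5 of 10 (50%). Subunit genes with other names are not among the 12, such as Brd7 and Brd9, with no assigned peak, and Ss18, with a listed peak. Deacetylase genes were listed in 4 of 11 cases (36.4%) and demethylase genes in 8 of 18 (44.4%). All these shares, and the 21.1%, go by the gene to which the file assigned a peak. A further 7 genes of the rule had a listed peak in the gene or within 1 kb that was assigned elsewhere. They are Hdac3, Kdm1b, Kdm4d, Kmt2d, Kmt2e, Chd8 and Arid4a.

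**Figure D1:**
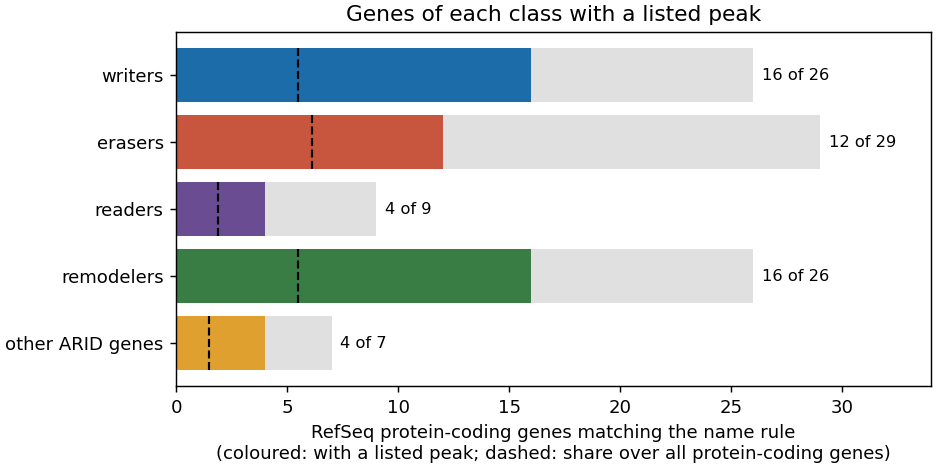
Genes of each class with a listed peak. Each bar is the number of RefSeq protein-coding genes that match the naming rule. The coloured part is those to which a listed peak was assigned, and the dashed line the number that a share of 21.1% would give. The coloured part reaches past the dashed line in all 5 classes.

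Fold and pileup of the members are given beside those of the whole list, which includes them. The median fold was 5.03 over 64 member peaks (range 2.61 to 20.3), against 4.74 over all 6395 peaks. The median pileup was 13.7 (range 5.09 to 31.7), against 11.6 over the list and 13.0 over the 4237 TSS peaks of protein-coding genes. A q of 0.01 kept 60 of the 64 member peaks (93.8%), where it kept 82.4% of the list. An exact conditional test was also run that counts the noise of the control fragments at the site itself. With the list's own largest p, 6.90e-05, as its threshold, it kept 27 member peaks (42.2%), where it kept 20.9% of the list and 25.6% of the TSS peaks of protein-coding genes. Where the control has 0 fragments, a peak passes it from 39 fragments upwards, so deeper peaks are favoured. Across the 64 member peaks, fold and control background had a Spearman rho of -0.56, and over the list -0.56 as well. The background is the denominator of the fold, and all peaks share the same pooled libraries.

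**Figure D2:**
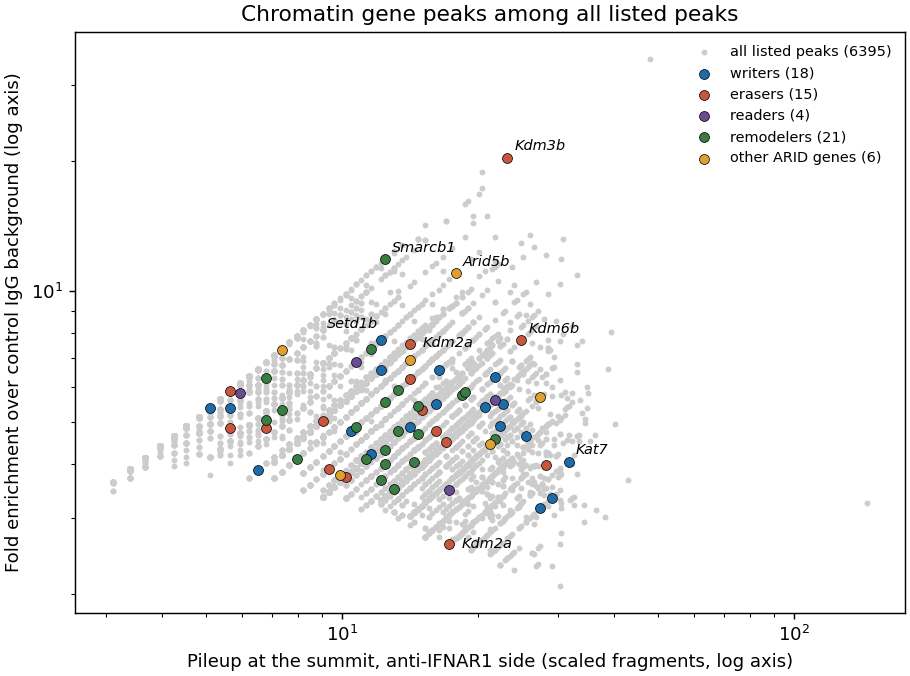
Fold against pileup for all listed peaks. Both axes are logarithmic, each point is a peak, grey points are all 6395 listed peaks and coloured points are the 64 member peaks by class. Kdm3b stands at a fold of 20.3 with a pileup of 23.2, and the lower Kdm2a peak at a fold of 2.61.

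Writers had 18 listed peaks in 15 genes, with a median fold of 5.13 (range 3.16 to 7.70) and the widest spread of pileup among the classes, from 5.09 at Setd6 to 31.7 at Kat7. The H3K4 methyltransferase gene Setd1b held both leading peaks by q in the authors' deposited table. The peak before its start (chromosome 5, 123140849 to 123141975) had 43 anti-IFNAR1 fragments, a background of 0.708 and a fold of 7.70. A second Setd1b peak (123149896 to 123151155), placed at the end of the same transcript and 9.21 kb from the first, had 77 fragments over 2.60 and a fold of 6.33. That transcript is labelled a retained intron, and the peak lies inside the RefSeq gene (123142040 to 123168630). Setd2, which encodes the enzyme that trimethylates H3K36, followed with 80 fragments over 3.30 and a fold of 5.49 at its TSS (chromosome 9, 110532489 to 110532928). Setd7, a gene for an H3K4 monomethyltransferase, had 58 fragments over 1.65 at its TSS, a fold of 6.56, and an intronic peak with 20 fragments over 0.236, a fold of 5.38.

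The mixed-lineage leukemia family of H3K4 methyltransferases had 3 listed genes. Kmt2c, whose product marks enhancers, had a fold of 5.41 with 73 fragments against 3 control fragments at the site. Scaled for depth, this was a ratio of 6.88 (exact 95% interval 2.26 to 34.1). Kmt2b had a fold of 5.48 and Kmt2a of 4.84 in the authors' deposited table. Their neighbours in the family, Kmt2d and Kmt2e, had no assigned peak. Kmt5a, the gene of the H4K20 monomethyltransferase, had 90 fragments over 4.72 and a fold of 4.62. Its relative Kmt5b, outside the naming rule only through its older symbol, had a TSS peak (chromosome 19, 3767687 to 3769179) with 69 fragments over a background of 0.378 and a fold of 14.9, rank 9 of 6395 by fold and rank 14 by q.

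Acetyltransferase genes had 5 peaks with a median pileup of 12.2, below the 16.4 of the methyltransferase genes, and Kat7 and Kat6b stood highest. Kat7, which encodes HBO1, had the highest pileup of all members, 31.7, or 112 fragments over a background of 7.08, and a fold of 4.04. Kat6b, the MORF gene, had 97 fragments against 8 control fragments at the site and the lowest fold of the writers, 3.16. Its depth-scaled ratio was 3.43 (exact 95% interval 1.67 to 8.16). Its relative Kat6a, the MOZ gene, had 41 against 2 fragments and a fold of 4.20. Kat2b, the PCAF gene, had 43 fragments against 1 at its TSS, a fold of 6.58, and an intron 1 peak 20.6 kb downstream of the assigned start with a fold of 4.74. Setd5 resembled Kat6b, with 103 fragments over 8.02 and a fold of 3.34. Setd3, the actin histidine methyltransferase gene, had 79 fragments over 3.78 and a fold of 4.89. Setd6 was the shallowest member peak, with 18 fragments over the genome-wide rate of 0.132 and a fold of 5.38. The peak in coding exon 10 of Setd4 had 23 fragments over 0.944, a fold of 3.86 with q = 0.0425.

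Erasers had 15 listed peaks in 12 genes, with a median fold of 4.83 and the widest range of fold among the classes, 2.61 to 20.3. Kdm3b, an H3K9 demethylase gene, led all members with a TSS peak on chromosome 18 (34776798 to 34777632). It had 82 anti-IFNAR1 fragments over a background of 0.189, taken from a 10 kb window, and 0 control fragments at the site. Its fold of 20.3 was rank 2 of the 6395 peaks, and so was its q of 1.25e-34. Against a floor of 3 control fragments over the pooled control side, the ratio was 7.73 after scaling for depth. This value leaves out the noise of the 82 fragments. The exact 95% interval of the ratio, from 0 control fragments, began at 6.14. Its paralog Kdm3a had more anti-IFNAR1 fragments, 100, but over a background of 6.37, so that its fold was 3.97.

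Kdm6b, which encodes the H3K27 demethylase JMJD3, had the widest member peak at 2491 bp. The peak lay in a 5′ UTR exon (chromosome 11, 69408793 to 69411284), its summit 4.46 kb downstream of the assigned start, with 88 fragments over 2.36, a fold of 7.70 and q = 7.26e-13. Kdm7a, a demethylase gene for H3K9 and H3K27, had its peak in coding exon 1, with 50 fragments over 1.42 and a fold of 6.26. The H3K4 demethylase genes Kdm5a and Kdm5c had folds of 4.49 and 5.02. Kdm6a, Kdm1a, the Kdm4 genes and Kdm5b had no assigned peak.

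The H3K36 demethylase gene Kdm2a had TSS peaks at different transcripts, 63.4 kb apart, with unequal folds. At the upstream start (chromosome 19, 4397081 to 4398136), 61 anti-IFNAR1 fragments stood against 6 control fragments, a fold of 2.61, the lowest of all members, and a q of 0.0418. At the internal start (4333034 to 4334012), 50 fragments stood against 1, a fold of 7.57. Scaled for depth, the ratios were 2.87 (exact 95% interval 1.25 to 8.14) and 14.1 (2.42 to 569), and these intervals overlap. The pileups on the anti-IFNAR1 side were 17.2 and 14.1. Kdm2b, which brings a Polycomb complex to CpG islands, had 3 TSS peaks within 37.5 kb, with 53, 24 and 36 fragments and folds of 5.33, 4.82 and 3.73.

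Deacetylase genes were the thinnest group, with a median pileup of 7.49 over 4 peaks. Hdac2, a class I deacetylase gene, had 57 fragments over 2.60 and a fold of 4.76, and its close paralog Hdac1 had 33 over 1.65 and a fold of 3.89. Hdac6, whose product deacetylates tubulin, had 20 fragments over the genome-wide rate and a fold of 5.88. Hdac4, a class IIa gene, had an intron 1 peak with its summit 26.8 kb from the start, 20 fragments over 0.378 and a fold of 4.83. Of the 4, the exact test kept Hdac2, whose control count was not known and was taken at its upper limit. Hdac3 and Hdac7 had no assigned peak.

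**Figure D3:**
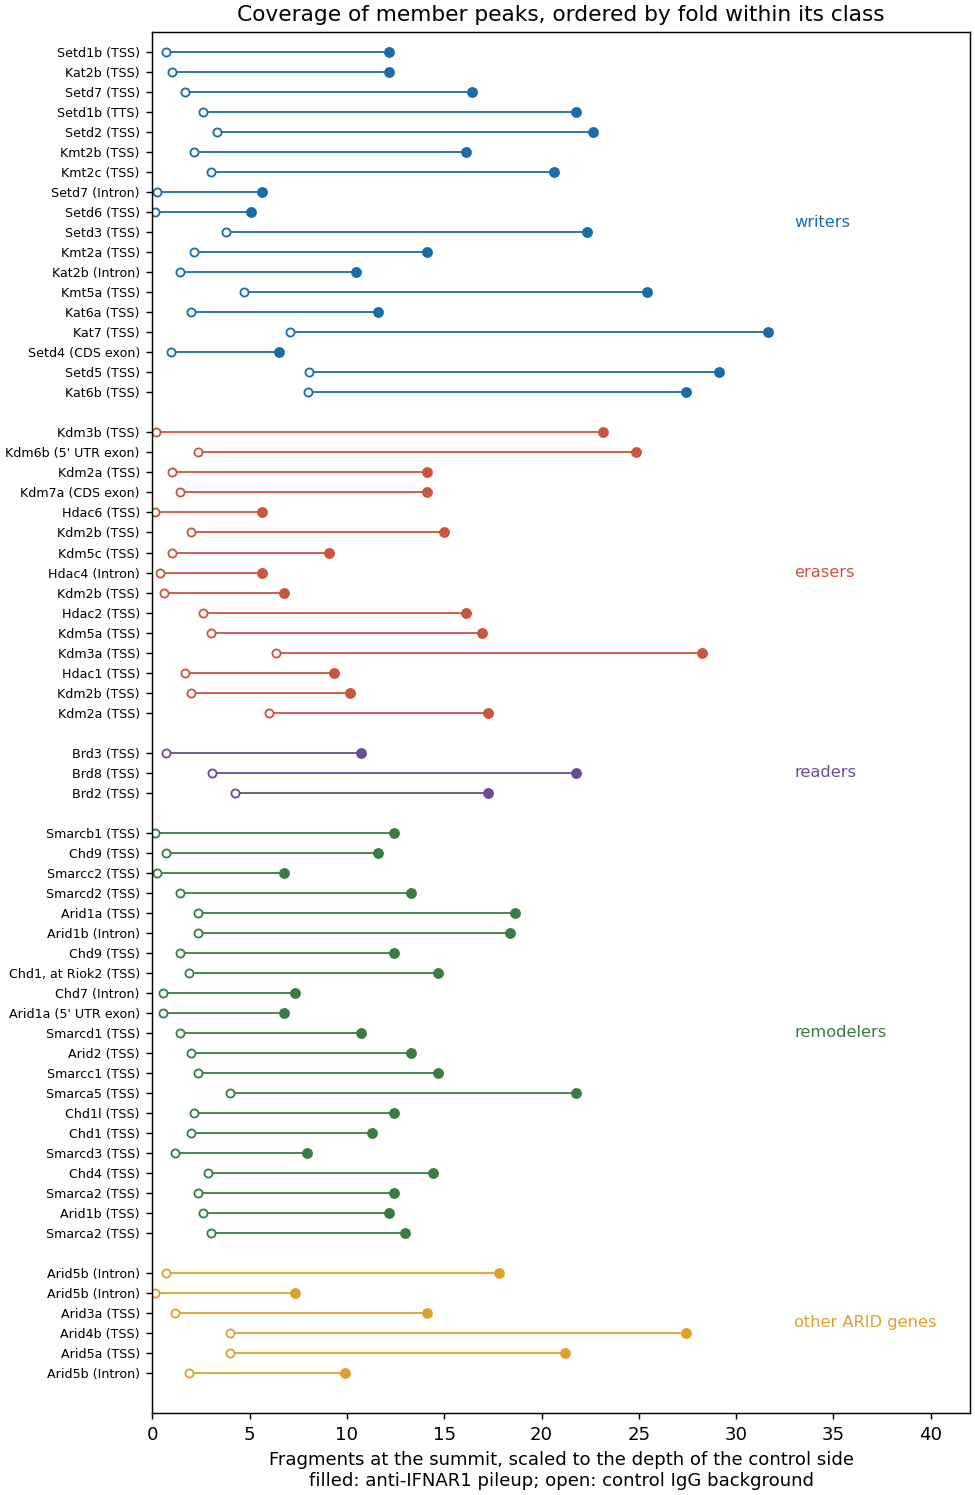
Coverage of the member peaks, with 3 of the 4 reader peaks drawn. Filled points are the pileup on the anti-IFNAR1 side and open points the control IgG background, both in fragments scaled to the control depth, with peaks ordered by fold within each class. The 18 writer peaks span pileups of 5.09 to 31.7, and every background drawn lies at or below 8.02.

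Readers had 4 listed peaks in 4 genes, all at the TSS, with a median fold of 5.72. The BET genes Brd2 and Brd3 encode readers of acetylated histones that help release paused RNA polymerase. Brd3 had 38 fragments over 0.708, with 0 control fragments at the site, and a fold of 6.87. Brd2 had 61 fragments over 4.25 and a fold of 3.48. Brd2 thus had more anti-IFNAR1 fragments than Brd3 and a lower fold, over a higher background. Brd8, a subunit gene of the EP400 acetyltransferase complex, had the smallest q of the class, 2.52e-08, with 77 fragments over 3.07 and a fold of 5.60. Brd7 and Brd9, subunit genes of SWI/SNF complexes, and Brd1 had no assigned peak. The remaining names in this class, Brd3os and Brd8dc, match by spelling, and neither had an assigned peak.

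Remodelers had 21 listed peaks in 16 genes, with a median fold of 4.86 (range 3.50 to 11.9). Their pileups were close together, with quartiles of 11.3 and 14.4, and 1 of 21 reached 20. Smarcb1, a core SWI/SNF subunit gene, led with a TSS peak (chromosome 10, 75921019 to 75921713) of 44 fragments over the genome-wide rate of 0.132, a fold of 11.9 and q = 9.47e-17. With 0 control fragments at the site, the depth-scaled ratio against the floor of 3 was 4.15. The exact 95% interval of the ratio, from 0 control fragments, began at 3.23. The other listed core subunits were lower. Smarcc1 and Smarcc2, the scaffold subunit genes, had folds of 4.67 and 6.30, and Smarcd1, Smarcd2 and Smarcd3 had 4.86, 5.91 and 4.09. Smarcd3, with 28 fragments over 1.18, had the largest q of the class, 0.0261. Smarce1 had no assigned peak.

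The ATPase gene Smarca2 had TSS peaks at neighbouring transcripts 2.02 kb apart, with folds of 4.00 and 3.50, the latter the lowest of the remodelers. Smarca4, the gene of the alternative ATPase, had no assigned peak. Arid1a and Arid1b, whose products define the BAF form of SWI/SNF, had 2 peaks each. At Arid1a, the TSS peak had 66 fragments over 2.36 and a fold of 5.85, and a peak 5.37 kb away in a 5′ UTR exon had 24 over 0.543 and a fold of 5.05. At Arid1b, the stronger peak lay in intron 4 (chromosome 17, 5189766 to 5190242), 194 kb from the assigned start, with 65 fragments over 2.36 and a fold of 5.77. The Arid1b TSS peak had 43 fragments over 2.60 and a fold of 3.66. Arid2, a subunit gene of the PBAF form, had 47 against 2 fragments and a fold of 4.76.

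Outside SWI/SNF, the ISWI ATPase gene Smarca5 had the highest pileup of the remodelers, 21.8, with 77 fragments against 4 and a fold of 4.55. Scaled for depth, the ratio was 5.44 (exact 95% interval 2.04 to 20.5). Chd9 had peaks at the starts of different transcripts, 126 kb apart, with folds of 7.37 and 5.56. Chd4, the ATPase gene of the NuRD complex, had 51 fragments over 2.83 and a fold of 4.02, and Chd1l, a remodeler gene activated by poly(ADP-ribose), had a fold of 4.30. Chd7 had its peak in intron 15, 147 kb from the start, with 26 fragments over 0.566 and a fold of 5.33. Chd1, whose product follows elongating RNA polymerase, had 40 against 2 fragments and a fold of 4.10 at its own start.

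A further peak assigned to Chd1 did not lie at Chd1. It spans chromosome 17 from 17374318 to 17374556, 1670 kb from the other Chd1 peak, and covers position 17374332, the start of the kinase gene Riok2 in RefSeq. The file places a Chd1 transcript there. Its fold was 5.44 with 52 fragments over 1.89, and it is counted among the 64 because the rule goes by the file's names. Without it, the median fold of the remodelers was 4.81 in place of 4.86.

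The other ARID genes had 6 listed peaks in 4 genes, with a median fold of 6.31 (range 3.77 to 11.0). Arid5b, a transcriptional coregulator gene, held 3 of them, all in introns. The strongest (chromosome 10, 68276386 to 68277765) lay in intron 2, its summit 1.86 kb from the assigned start, with 63 fragments over 0.708 and a fold of 11.0, rank 65 of the list by fold. A second intron 2 peak had 26 fragments over 0.142 and a fold of 7.31, and the intron 3 peak had 35 over 1.89, a fold of 3.77 and q = 0.0231. Arid4b, a subunit gene of the SIN3 deacetylase complex, had 97 against 4 fragments and a fold of 5.68, a depth-scaled ratio of 6.86 (exact 95% interval 2.59 to 25.7). Arid3a had a fold of 6.94, and Arid5a, whose product stabilizes cytokine mRNAs, had 75 against 4 fragments and a fold of 4.44. Arid3b, Arid3c and Arid4a had no assigned peak.

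Here a TSS is the start of the transcript that the file assigned. Some such transcripts are labelled retained intron or processed transcript, and some begin inside the RefSeq gene, as at Kdm2a, Kdm2b and Chd9. Member peaks lay mainly at these transcript starts, as did the peaks of other coding genes. The file placed 51 of 64 at the TSS (79.7%, Wilson 95% interval 68.3 to 87.7), against 72.4% of all listed peaks and 81.4% of the 5202 peaks of protein-coding genes. By class, this was 14 of 18 for writers, 12 of 15 for erasers, 4 of 4 for readers, 18 of 21 for remodelers and 3 of 6 for the other ARID genes. The remaining 13 were 8 intron peaks, 2 in 5′ UTR exons, 2 in coding exons and 1 at a transcript end. These 13 had a median fold of 5.38 and a median pileup of 9.89, against 4.86 and 14.1 at the 51 TSS peaks. The summits of the TSS peaks lay at a median of 118 bp upstream of the assigned start, from 1091 bp upstream to 732 bp downstream. Intervals of shares and ratios cover counting error only, and the spread between mice is not in them. PCR duplicates are not separate molecules and their handling is not stated, so intervals of ratios can be too narrow.

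**Figure D4:**
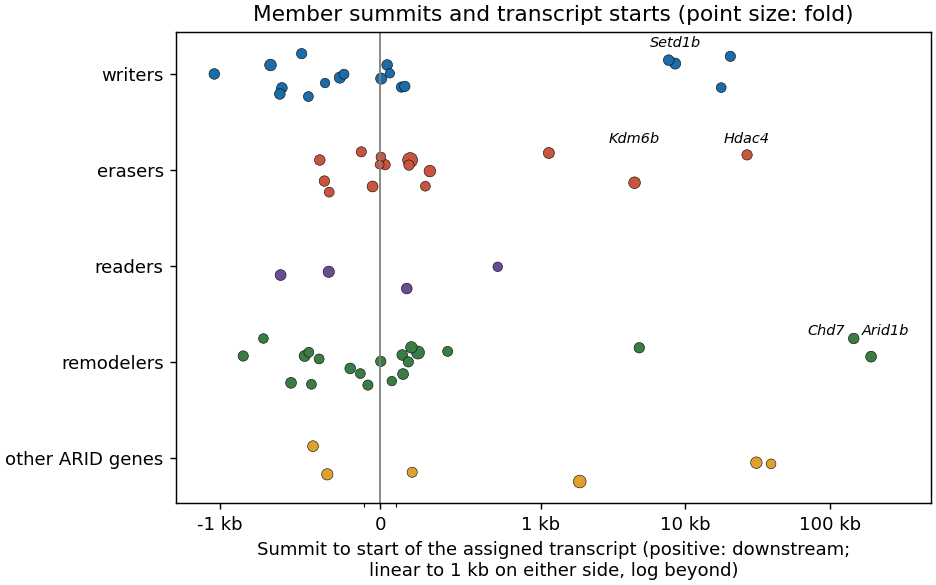
Distance from each member summit to the start of its assigned transcript. The axis is linear to 1 kb on either side and logarithmic beyond, rows are the classes, and point size grows with the fold. Readers and most other peaks sit within 1.1 kb of a start, while the Arid1b and Chd7 intron peaks lie 194 kb and 147 kb downstream.

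Comparing classes, the folds overlapped broadly and the pileups differed in spread. The interquartile range of fold was 4.30 to 5.48 for writers, 4.23 to 6.07 for erasers, 5.07 to 6.09 for readers and 4.10 to 5.77 for remodelers. The median pileup was 16.3 for writers, 14.1 for erasers, 14.0 for readers and 12.4 for remodelers. A pileup of at least 20 was reached by 8 of 18 writer peaks (44.4%), 3 of 15 eraser peaks (20%), 1 of 4 reader peaks and 1 of 21 remodeler peaks (4.76%), against 12.5% of the list. At TSS peaks alone, these were 7 of 14 for writers, 2 of 12 for erasers, 1 of 4 for readers, 1 of 18 for remodelers and 2 of 3 for the other ARID genes, against 681 of the 4237 TSS peaks of protein-coding genes (16.1%). The test at the site kept 10 of 18 writers, 6 of 15 erasers, 1 of 4 readers, 6 of 21 remodelers and 4 of 6 other ARID peaks. The median control background over all peaks was 2.12 for writers and 2.00 for remodelers. At TSS peaks alone it was 2.56 for writers (highest 8.02) and 2.00 for remodelers (highest 4). No test was made between classes, since their members are not replicates.

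**Figure D5:**
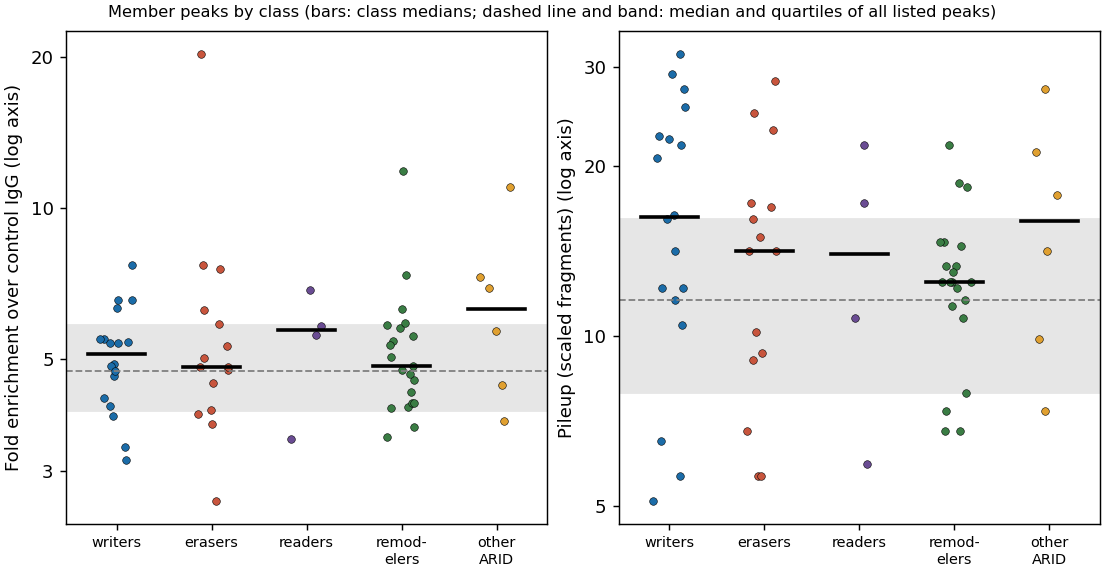
Fold and pileup of member peaks by class, both on log axes. Each point is a peak, bars are class medians, and the dashed line and grey band are the median and quartiles of all 6395 listed peaks. Class medians of fold run from 4.83 for erasers to 6.31 for the other ARID genes, and those of pileup from 12.4 for remodelers to 16.3 for writers.

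Of the 51 genes, 40 had a single peak assigned by the file, 9 had 2 and 2 (Kdm2b and Arid5b) had 3. A further 6 listed peaks lay in 5 of these genes or within 1 kb but were not assigned to them. The file gave 3 of them to no gene, with folds of 5.02 and 4.44 at Kdm6b and 3.77 at Arid5b. The other 3 were given to Mir7045 at Chd4, Gm6658 at Chd9 and Gm38200 at Setd7, with folds of 4.00, 3.71 and 4.37. Between assigned peaks of the same gene, the highest fold was 1.14 times the lowest at Smarca2, 1.22 times at Setd1b and at Setd7, 1.58 times at Arid1b, 2.90 times at Kdm2a and 2.92 times at Arid5b. The most unequal peaks lay at alternative starts (Kdm2a) and in introns (Arid5b). Peaks of the same gene share the pooled libraries and are not replicates.

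Several member peaks also covered the start of a neighbour. Of the 51 TSS peaks, 3 (5.88%) contained the RefSeq start of another protein-coding gene, against 6.77% of the 4237 TSS peaks of protein-coding genes. They were Kdm5a with Ccdc77, Arid4b with the isoprenoid synthesis gene Ggps1, both on the opposite strand, and the Chd1 peak at Riok2. The peaks at Kdm2b, Hdac6, Arid3a and Smarca2 covered starts of long noncoding RNAs on the opposite strand. ATAC-seq does not tell which of these genes the open site serves.

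The reverse also held. Of the 45 genes of the naming rule without a peak of their own, 7 had a listed peak in the gene or within 1 kb that the file assigned elsewhere. The peak given to Gm43766 had its summit 80 bp from the start of Chd8, that given to Cwc15 153 bp from the start of Kdm4d, and that given to Tpmt 254 bp from the start of Kdm1b, with folds of 4.70, 3.97 and 2.99. Peaks given to 3110056K07Rik, Rell2 and 5031425E22Rik lay at Arid4a, Hdac3 and Kmt2e, with folds of 4.48, 4.48 and 3.29. The peak given to Prkag1, with a fold of 7.49, lay 39785 bp from the start of Kmt2d.

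The 38 genes with no listed peak in the gene or within 1 kb included the remodeler genes Smarca1, Smarca4, Smarcad1, Smarcal1, Smarce1, Chd2, Chd3, Chd5 and Chd6. Among writers they were Kat14, Kat2a, Kat5, Kat8, Kmt5c, Setd1a, Setdb1 and Setdb2. Among erasers they were Kdm1a, Kdm4a, Kdm4b, Kdm4c, Kdm5b, Kdm5d, Kdm6a, Kdm8, Hdac5, Hdac7, Hdac8, Hdac9, Hdac10 and Hdac11. The readers Brd1, Brd3os, Brd7, Brd8dc and Brd9 and the ARID genes Arid3b and Arid3c complete them. A gene without a listed peak can be open on both sides, closed on both, or more open in control cells.

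To show promoter DNA at or beside member peaks, the 250 bases upstream of a RefSeq start (GRCm38.p6) are given for 1 gene per class. The gene with the smallest q of each class was taken among those with a RefSeq promoter entry and at least 90 of these bases under its peak, where the file's transcript does not begin within them. Kdm3b and Brd8 were not considered for display. Through this and the conditions above, the genes shown are not those with the smallest q of their class. They are chr9:110532347-110532596 (plus strand) for Setd2, chr6:71632918-71633167 (minus strand) for Kdm3a, chr2:27475399-27475648 (minus strand) for Brd3, chr8:90828585-90828834 (plus strand) for Chd9 and chr13:14063534-14063783 (plus strand) for Arid4b. In each case the RefSeq gene span begins before the start used. Each window thus lies wholly (Brd3 and Chd9) or partly (Setd2, Kdm3a and Arid4b) within that span. The bases under the listed peak number 108, 93, 250, 124 and 250. Each is written 5′ to 3′ on the strand of the gene, and capitals mark matches to the motifs searched.
Setd2: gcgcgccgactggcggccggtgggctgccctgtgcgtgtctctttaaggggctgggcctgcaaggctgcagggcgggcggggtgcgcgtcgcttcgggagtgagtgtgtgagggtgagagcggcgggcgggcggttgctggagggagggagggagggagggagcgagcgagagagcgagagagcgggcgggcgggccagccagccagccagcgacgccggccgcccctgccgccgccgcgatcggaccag
Kdm3a: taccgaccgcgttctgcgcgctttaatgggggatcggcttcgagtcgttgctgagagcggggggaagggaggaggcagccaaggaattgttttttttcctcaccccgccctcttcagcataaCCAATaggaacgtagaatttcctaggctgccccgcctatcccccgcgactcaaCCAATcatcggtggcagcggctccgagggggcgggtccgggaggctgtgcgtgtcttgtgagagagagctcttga
Brd3: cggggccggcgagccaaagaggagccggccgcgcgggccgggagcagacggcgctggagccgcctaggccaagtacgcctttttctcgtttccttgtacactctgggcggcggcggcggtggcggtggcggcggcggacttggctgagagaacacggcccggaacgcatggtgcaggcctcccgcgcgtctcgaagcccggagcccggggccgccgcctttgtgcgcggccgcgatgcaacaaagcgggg
Chd9: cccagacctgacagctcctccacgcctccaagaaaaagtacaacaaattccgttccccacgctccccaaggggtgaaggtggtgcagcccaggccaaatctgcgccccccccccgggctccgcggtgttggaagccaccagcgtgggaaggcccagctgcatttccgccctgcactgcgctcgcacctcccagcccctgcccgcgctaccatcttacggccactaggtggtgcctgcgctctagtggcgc
Arid4b: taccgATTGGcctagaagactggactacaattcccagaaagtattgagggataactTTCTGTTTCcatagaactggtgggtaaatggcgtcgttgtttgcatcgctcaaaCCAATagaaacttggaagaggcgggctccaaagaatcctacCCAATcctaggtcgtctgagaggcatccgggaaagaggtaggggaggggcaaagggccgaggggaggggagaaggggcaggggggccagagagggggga

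On both strands, 8 short motifs were searched in these bases: the ETS core CCGGAAGT, the NRF1 core GCATGCGC, the CRE TGACGTCA, the CCAAT box CCAAT, the SP/KLF box GGGGCGGGG, the YY1 motif AAGATGGCG, the core GAAANNGAA of the interferon-stimulated response element and the TATA box TATAAA. None of the matches found overlaps another. Positions are counted from the start used for each window, and not from the first base of the gene span. The Kdm3a promoter held 2 CCAAT boxes, from 128 to 124 and from 75 to 71 bases upstream of that start, both outside the 93 bases under its listed peak. The Arid4b promoter held 3 CCAAT boxes, starting 245, 140 and 99 bases upstream, and a match to the interferon-stimulated core from 194 to 186 on the reverse strand, all under its listed peak. Setd2, Brd3 and Chd9 held no match. Of 21263 RefSeq promoters of protein-coding genes, 35.4% hold a CCAAT box and 6.84% the interferon-stimulated core in the same window, while the ETS core is in 3.79%, NRF1 in 2.93%, CRE in 1.92%, SP/KLF in 13.9%, YY1 in 0.720% and the TATA box in 11.6%. A match is a run of letters and not a bound site. No count over all members was made, since 37 of the 51 genes (72.5%) had a promoter entry, fewer than the 80% needed.

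Chromatin genes outside the naming rule were looked up in the same list. Of 64 such genes, 40 had a listed peak (62.5%, against 21.1% of all protein-coding genes), with 44 peaks, a median fold of 4.95 and 79.5% at the TSS. For a gene with several peaks, the peak with the smallest q is given. Polycomb genes had 5 of 9 listed, with the H3K27 methyltransferase gene Ezh2 at a fold of 7.61 in a 3′ UTR exon, Jarid2 at 7.28, Suz12 at 5.45 and Eed at 5.41, while Ezh1, Bmi1, Ring1 and Rnf2 had none assigned. Other histone methyltransferase genes had 6 of 9, from 2.56 at Nsd1 (78 fragments) to 6.08 at Ehmt1 (21 fragments), and other readers 6 of 7. Other remodeler subunit genes had 8 of 14, led by Ep400 at 8.08, whose complex holds the Brd8 protein, and with Ss18, a BAF subunit gene, at 5.68. Those without an assigned peak were Pbrm1, Dpf2, Ruvbl1, Ruvbl2, Baz1a and Hells. The corepressor genes had 6 of 10, with the SIN3 scaffold gene Sin3a at 5.37 with 123 fragments and the NuRD gene Mbd3 at 6.01 with 123. DNA methylation genes had 5 of 7, among them Uhrf1 at 6.82, Tet1 at 5.38 (18 fragments), Tet3 at 5.02, Tet2 at 3.63 and Dnmt3a at 4.88 in coding exon 2. Sirtuin genes had 2 of 4, with Sirt2 at 7.88 in intron 7 and Sirt1 at 5.02. The acetyltransferase genes had 2 of 4, with Crebbp at 4.17 in intron 1 (14 fragments, q = 0.0349) and none at Ep300.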

How the data were processed

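ATAC-seq was run on 7 samples, grouped by their treatment label. The submitters' processing notes name DiffBind 2.0.7, MACS2 2.1.0.20150420, bedtools, BWA 0.7.9a and DESeq2, without roles or order, and build mm10. Shifting of cut sites and handling of duplicates are not stated there. The authors deposited 1 annotated peak list, whose peak names give the direction. Which samples were pooled is not stated. The pileup is a coverage signal and the fold a ratio over local background, per the file headers. The authors also deposited the −log10 p and −log10 q of each peak, under damaged headers, read by their place in the layout.

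Pileups were turned into fragments by their step (largest error 0.00497), and the fold gave the background, given a pseudocount of 1 in the caller. It came from the site for 16 member peaks, a 1 kb window for 38, a 10 kb window for 7 and the genome rate for 3. The one-sided exact conditional test at the site used unscaled fragments and was tried on simulated independent counts with the control count known. Such counts hold no spread between mice and no duplicates, so the trial does not cover these. Where the control fragments at the site were unknown, the most that the background allows was used. Peaks were listed because they were high, so ratios are tilted towards a gain. The design assumed values per sample where given, and since there were none, the authors' statistics were used as they stand.

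File names were matched to RefSeq symbols or unambiguous synonyms on the same chromosome. Members and lists were chosen with earlier results of these data known. Named peaks were the 4 with the smallest q per class, the highest and lowest fold and pileup, every peak outside the TSS and every gene with several peaks. The values of 1 reader gene are not reported here. Further members were added to describe each complex after their values were seen. Python 3.11.15, pandas 2.3.3, numpy 2.4.6, scipy 1.17.1 and matplotlib 3.10.9 were used.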

Additional observations from a re-analysis of the deposited data

How the results depend on the processing

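A stricter q of 0.01, a pileup of at least 20, promoter peaks alone, the exact test at the site, 1 peak per gene and another class assignment were tried, and after seeing the data 2 more were added, an exact test on the window the caller used and leaving out the Chd1 peak at Riok2. Of the recomputed values, 68 stayed within 1.5 times the main count or within the 95% interval of the main share or median, and 11 moved. Part of the 68 could not move, so their number does not measure robustness. The other class assignment leaves the values over all members, writers, erasers and readers as they were. Leaving out the Chd1 peak changes no class median but that of the remodelers, and 1 peak per gene keeps all 51 genes. The 64 peaks and 51 genes became 15 and 15 with a pileup of at least 20, and 27 and 26 when the site test was applied. The share at the TSS became 100% when promoter peaks alone were kept, which follows from the filter. With the site test, the median fold of all members was 5.68, of erasers 6.92 and of remodelers 5.81, and with a pileup of at least 20 that of erasers was 7.70 over 3 peaks. The median pileup was 20.6 with the site test and 23.2 with a pileup of at least 20, filters that remove shallow peaks. The test on the caller's window kept 53 member peaks, where it kept 68.7% of the list. No paired analysis was possible because no column of the file carries a sample, and leaving out replicates was not run for the same reason. Depth limits the shallow peaks: with fewer than 39 fragments, a peak could not pass the test at the site.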
